A study of Mus musculus with 2 samples.

Results

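The 10 genes described here carry or report Wnt and β-catenin signalling in brain blood vessels, and they were taken by name: the receptor genes Fzd4, Tspan12, Adgra2 and Reck, the signal transducer Ctnnb1, the nuclear factors Lef1 and Tcf7, the feedback inhibitors Axin2 and Apcdd1, and the endothelial transcription factor Sox17. All 10 were among the 32285 genes of the matrices, and all 10 were detected in endothelial cells of both libraries. On mm10, Lef1 spans chr3:131110471-131224356, Fzd4 chr7:89404355-89413134 and Sox17 chr1:4490931-4497354, each a protein-coding gene. The choice used no measured value, although it was made with earlier results of these data known. Levels are unique molecular identifiers (UMIs) of a gene in a cell group, in CPM, the usual scaling of counts to a common total, from droplet-based sequencing of the 3′ end of polyadenylated RNA.

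The study compared cerebellar cells of WT mice and of KIKO (knock-in knock-out) mice, a model of Friedreich ataxia, to find the cell types that respond early in the disease. Per its methods the KIKO mice came from a commercial breeder, the WT mice were littermates on C57BL/6, both sexes were used, both groups were 6 months old and untreated, and 4 cerebella were pooled per library. The pooled cells were dissociated, frozen and thawed before capture, so each genotype holds 1 library in which the mice cannot be told apart. No difference between the libraries therefore has a replicate check.

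Wnt ligands made by neural cells act on endothelial cells of the brain through a frizzled receptor and LRP co-receptors, and the receptor partners decide which ligand is heard: Tspan12 works with Fzd4 for norrin, and Adgra2 with Reck for Wnt7a and Wnt7b. The signal stops the breakdown of β-catenin, which enters the nucleus and acts with factors of the TCF and LEF family on genes that include their own inhibitors. In brain vessels this pathway is known for building and keeping the blood-brain barrier.

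After filtering, 1388 of 3237 barcodes labelled WT and 2063 of 3685 labelled KIKO were kept, with 11081338 and 16377785 UMIs and median depths of 7128.5 and 7234.0 UMIs per cell. Cells were grouped by the number of markers with at least 1 UMI: pericytes by 3 or more of Abcc9, Kcnj8, Atp13a5 and Vtn, and endothelial cells by 3 or more of Cldn5, Flt1, Pecam1 and Cdh5 without being pericytes. Endothelial cells were arterial with 3 or more of Gkn3, Bmx, Egfl8, Sema3g and Vegfc, venous with 3 or more of Vwf, Slc38a5, Il1r1, Vcam1 and Ndnf, and otherwise "other". The libraries labelled WT and KIKO gave 62 and 124 arterial, 145 and 220 venous, 588 and 931 other endothelial cells, and 159 and 215 pericytes, and 45 barcodes occurred in both libraries, 0 of them among the kept cells. Every direction between genotypes below follows the labels.

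The pericyte group was mixed. Of the pericytes, 94 labelled WT (59.1%) and 87 labelled KIKO (40.5%) also had 3 or more endothelial markers, and the summed level of the 4 endothelial markers was 5552 and 4256 CPM, against 10931 and 11822 CPM in other endothelial cells. Pericytes with fewer than 2 endothelial markers, 60 labelled WT and 118 labelled KIKO, had 207 and 149 CPM of these markers, and 15525 and 15469 CPM of the pericyte markers. They also had 544 and 794 CPM of the smooth muscle markers Acta2, Myh11, Tagln and Cnn1. Fibroblast markers (Dcn, Col1a1, Col1a2, Lum and Pdgfra) summed to 188 and 642 CPM, and 5 astrocyte markers to 25.9 and 196 CPM. The part of such RNA in the pericyte levels below was not tested. Pericytes with fewer than 2 endothelial markers are given separately wherever pericytes enter. Whether the mixed barcodes are pairs of cells was not tested.

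Promoter sequences are shown for Lef1, Reck and Axin2, because a nuclear factor, a receptor component and a classical target of the pathway let the presence of the letters that TCF and LEF factors bind be read directly. They were taken from RefSeq on GRCm38.p6 (mm10), span 250 bases before to 50 bases after a start site, and are written in the direction of transcription, with capitals marking a match to CTTTGAA or CTTTGAT or CTTTGTA or CTTTGTT on either strand. The counts below cover 12 promoters of 7 of the 10 genes. Promoters of Apcdd1, Sox17 and Adgra2 were not among them, so whether these genes hold a match was not tested.
Lef1, upstream start, plus strand, chr3:131110047-131110346: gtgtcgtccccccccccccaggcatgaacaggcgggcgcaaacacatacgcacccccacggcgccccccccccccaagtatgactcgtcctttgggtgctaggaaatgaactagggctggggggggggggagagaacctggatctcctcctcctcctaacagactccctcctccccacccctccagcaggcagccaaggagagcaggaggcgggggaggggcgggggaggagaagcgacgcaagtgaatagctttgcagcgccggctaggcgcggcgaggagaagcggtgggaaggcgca
Lef1, start within the gene, plus strand, chr3:131156044-131156343: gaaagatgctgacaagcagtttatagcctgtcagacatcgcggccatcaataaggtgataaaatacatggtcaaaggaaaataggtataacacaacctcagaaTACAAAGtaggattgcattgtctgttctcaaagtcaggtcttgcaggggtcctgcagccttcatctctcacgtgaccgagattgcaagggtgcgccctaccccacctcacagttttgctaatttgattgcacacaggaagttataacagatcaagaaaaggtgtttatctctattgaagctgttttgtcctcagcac
Reck, plus strand, chr4:43875280-43875579: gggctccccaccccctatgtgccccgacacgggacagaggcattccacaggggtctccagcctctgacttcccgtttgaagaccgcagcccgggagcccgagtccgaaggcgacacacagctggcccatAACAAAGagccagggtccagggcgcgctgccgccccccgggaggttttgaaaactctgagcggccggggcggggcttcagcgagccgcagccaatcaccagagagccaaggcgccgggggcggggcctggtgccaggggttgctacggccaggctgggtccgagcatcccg
Axin2, plus strand, chr11:108920099-108920398: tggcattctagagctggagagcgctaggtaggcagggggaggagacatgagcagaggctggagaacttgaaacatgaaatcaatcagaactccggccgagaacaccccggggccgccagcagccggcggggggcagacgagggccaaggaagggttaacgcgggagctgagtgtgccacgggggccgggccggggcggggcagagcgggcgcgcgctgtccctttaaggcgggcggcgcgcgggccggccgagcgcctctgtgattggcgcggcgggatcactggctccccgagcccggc
A match was found in 2 of the 12 promoters, beginning 147 bases before the start that lies within the Lef1 gene and 121 bases before the start of Reck. Of all 32851 RefSeq promoters of this length, 16.9% held one. The SOX letters ATTGTT, on either strand, were in 0 of the 12 promoters and in 10.7% of all promoters. A match is a description of letters and not a binding site, and the 3′ counts do not tell which Lef1 start a transcript used.

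The first comparison asked whether the genes differ along the vessel, from arterial to venous endothelial cells. Apcdd1, Lef1 and Fzd4 were higher in venous than in arterial cells and Sox17 was lower, in both libraries, and the other 6 genes did not pass the test. The test was edgeR's quasi-likelihood test on the UMI sums of 4 cell groups in 2 libraries with the library as a block, adjusted by Benjamini-Hochberg over the 10855 genes tested. Of the 10 genes, 3 were called higher in venous cells, against 6.53% of all genes, and 1 was called lower, against 8.12%. The library term takes up what a library shares, so the p-values rest on how much group differences change between the 2 libraries. These are pools that also differ in genotype, and all 4 groups share 1 estimate of the spread. The median log2 difference was 0.00 over the 10 genes and 0.02 over all genes tested.

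Of the receptor genes, Fzd4, which encodes the frizzled receptor for norrin, stood at 128 CPM in arterial and 228 CPM in venous cells labelled WT, and at 124 and 197 CPM in those labelled KIKO. Venous cells were the higher in each library. The log2 fold change, venous over arterial, was 0.78 (SE 0.13, adjusted p = 0.00037 by edgeR). Tspan12, the tetraspanin partner of Fzd4, had 53.2 and 48.5 CPM in arterial and venous cells labelled WT and 60.1 and 60.8 CPM in those labelled KIKO. Its groups changed order between the libraries, with a log2 fold change of 0.00 (SE 0.17).

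The pair that passes on Wnt7 signals had its higher values in arterial cells of both libraries, without passing the test. Adgra2, the adhesion receptor also called Gpr124, had 121 CPM in arterial against 89.3 CPM in venous cells labelled WT, and 122 against 98.0 CPM in those labelled KIKO. Its log2 fold change was -0.32 (SE 0.14, adjusted p = 0.14 by edgeR). Reck, the membrane-anchored glycoprotein that binds Wnt7 with Adgra2, had 110 and 102 CPM in arterial and venous cells labelled WT, and 133 and 93.2 CPM in those labelled KIKO. The Reck difference was -0.30 (SE 0.14, adjusted p = 0.20 by edgeR). It reached -0.70 (adjusted p = 0.0052 by edgeR) when endothelial cells with a pericyte marker were left out. Over 10 alternatives it ran from -0.70 to 0.08. Within each library it was -0.12 (-0.52 to 0.28) labelled WT and -0.51 (-0.79 to -0.22) labelled KIKO, with intervals of counting error only.

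Ctnnb1, which encodes β-catenin, was not called along the vessel. It had 420 and 457 CPM in arterial and venous cells labelled WT, and 429 and 461 CPM in those labelled KIKO. The log2 fold change was 0.16 (SE 0.12, adjusted p = 0.46 by edgeR).

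Of the nuclear partners of β-catenin, Lef1 was called and Tcf7 was not. Lef1 had 540 CPM in arterial and 923 CPM in venous cells labelled WT, and 636 and 1023 CPM in those labelled KIKO. Other endothelial cells lay between these zones in each library, at 800 and 894 CPM. The log2 fold change, venous over arterial, was 0.77 (SE 0.12, adjusted p = 0.00023 by edgeR). Tcf7 had 65.5 and 59.5 CPM in arterial and venous cells labelled WT, and 71.1 and 59.5 CPM in those labelled KIKO, a difference of -0.16 (SE 0.17, adjusted p = 0.62 by edgeR). With no upper limit on UMIs the Lef1 call was lost (0.52, adjusted p = 0.055 by edgeR). The 2 genes were not tested against each other.

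Of the feedback inhibitors, Apcdd1, a membrane protein that binds Wnt ligands and dampens the signal, had the largest zone difference of the 10 genes. It stood at 62.7 CPM in arterial and 281 CPM in venous cells labelled WT, and at 89.8 and 314 CPM in those labelled KIKO. The venous level was 448% of the arterial one in the library labelled WT and 350% in the library labelled KIKO. The log2 fold change was 1.98 (SE 0.14, adjusted p = 5e-08 by edgeR). Axin2, part of the β-catenin destruction complex and widely used as a readout of the pathway, had 60.0 and 62.8 CPM in arterial and venous cells labelled WT, and 67.7 and 62.4 CPM in those labelled KIKO. Its zones differed by less than the counting error in each library, with a log2 fold change of 0.00 (SE 0.16).

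Sox17, an SRY-box factor of endothelial cells known for its part in arterial identity, ran opposite to Lef1. It had 430 CPM in arterial and 320 CPM in venous cells labelled WT, and 411 and 228 CPM in those labelled KIKO. Arterial cells were the higher in both libraries. The log2 fold change, venous over arterial, was -0.60 (SE 0.14, adjusted p = 0.0053 by edgeR), and it was not called without the library block (adjusted p = 0.14).

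**Figure D1:**
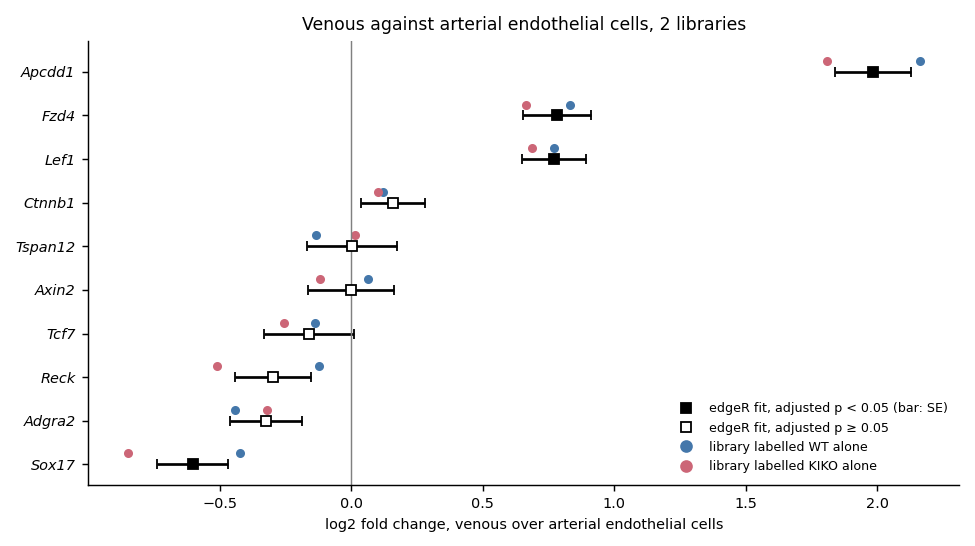
Log2 fold change of CPM, venous over arterial endothelial cells (x axis), for each of the 10 genes (y axis); squares are the edgeR estimates with their standard errors, filled where the adjusted p was under 0.05, and circles are the ratios within each of the 2 libraries. Apcdd1 (1.98), Fzd4 (0.78), Lef1 (0.77) and Sox17 (-0.60) were called, and both libraries lay on the same side of 0 for each of these 4 genes.

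Against other endothelial cells, which passed neither zone gate, arterial cells differed in the same 4 genes. Lef1, Apcdd1 and Fzd4 were lower in arterial cells, with log2 fold changes of -0.55 (SE 0.12), -1.64 (SE 0.14) and -0.55 (SE 0.13), and Sox17 was higher, at 0.53 (SE 0.13). These were 3 of the 10 genes called lower, against 4.29% of all genes, and 1 called higher, against 6.12%. Adjusted p by edgeR was 0.0058 for Lef1, 7.1e-07 for Apcdd1, 0.0075 for Fzd4 and 0.013 for Sox17. Without the library block the adjusted p by edgeR was 0.051 for Lef1, 0.067 for Fzd4 and 0.24 for Sox17, with no upper limit on UMIs it was 0.087, 0.21 and 0.25, and with gates of 2 markers it was 0.15 for Lef1 and 0.13 for Fzd4, so these calls were lost. The Fzd4 call was also lost with DESeq2 (0.054), and the Sox17 call with every cell thinned to 3000 UMIs (0.14).

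Between venous and other endothelial cells 0 of the 10 genes were called higher, against 2.15% of all genes, or lower, against 1.65%, by edgeR or by DESeq2, and at an unadjusted p under 0.05 there was 1 gene higher (Apcdd1, 0.34, SE 0.11) and 1 lower (Tcf7, -0.30, SE 0.14). For Lef1, Fzd4 and Apcdd1 the order of the levels was thus arterial, then other, then venous, in both libraries, and the neighbours other and venous did not pass the adjusted test. For Apcdd1 they differed beyond counting error within each library (0.37, 0.20 to 0.54 labelled WT, and 0.27, 0.14 to 0.39 labelled KIKO), as they did for Lef1 (0.21, 0.12 to 0.30, and 0.19, 0.13 to 0.26) and Fzd4 (0.19, 0.00 to 0.36, and 0.23, 0.07 to 0.38). For Sox17 the order ran arterial, venous, other in the library labelled WT and arterial, other, venous in the library labelled KIKO, and venous and other cells did not pass the adjusted test.

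The zone gates require 3 markers, so the levels were also read by the number of arterial markers found in each endothelial cell. In the library labelled WT, Apcdd1 stood at 268 CPM in 517 cells with 0 arterial markers, 198 CPM in 148 cells with 1, 108 CPM in 68 cells with 2 and 110 CPM in 28 cells with 3. In the library labelled KIKO the same steps were 317, 215, 152 and 100 CPM, in 815, 251, 85 and 64 cells. Apcdd1 was thus already lower in cells with 1 or 2 arterial markers, which the gate counts as not arterial. All endothelial cells were used, so the cells with 0 arterial markers include venous cells, where Apcdd1 was highest. The part of venous cells in this step was not tested. Sox17 stood at 294 CPM at 0 markers, 472 CPM at 3, 428 CPM at 4 and 356 CPM at 5 in the library labelled WT, and at 230, 389, 427 and 436 CPM in the library labelled KIKO. Lef1 went from 885 CPM at 0 markers to 463 CPM at 4 in the library labelled WT, and from 955 CPM at 0 to 479 CPM at 5 in the library labelled KIKO, where the value at 4 markers (713 CPM) lay above that at 3 (671 CPM). Median depth rose with the number of markers, from 6776 to 12715.5 UMIs per cell between 0 and 4 markers in the library labelled WT. The part of depth in these steps was not tested here, and the zone calls of Lef1, Apcdd1, Fzd4 and Sox17 between venous and arterial cells held with every cell thinned to 3000 UMIs.

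**Figure D2:**
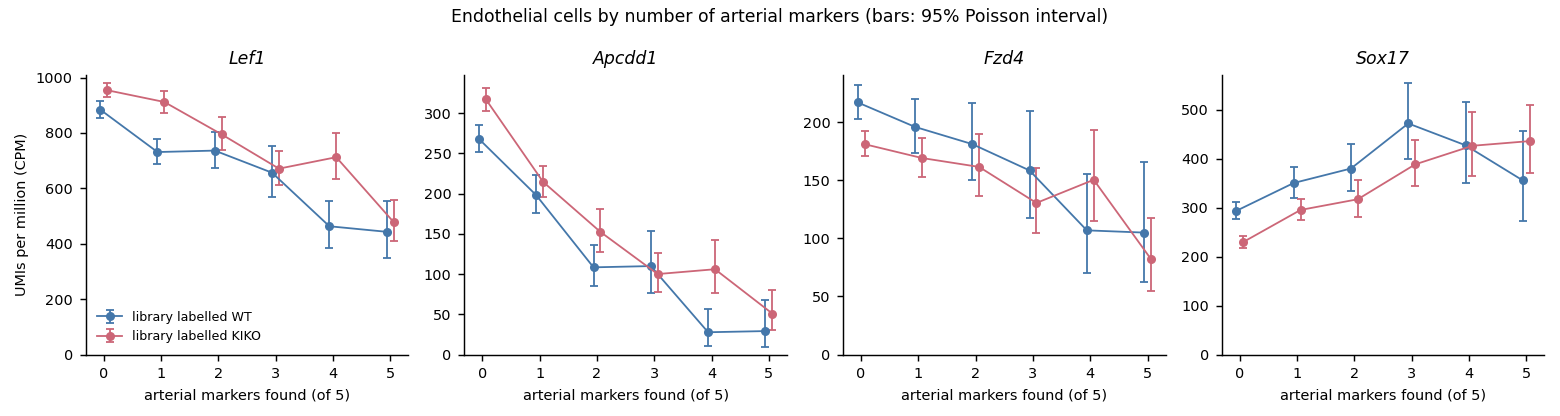
CPM (y axis) of Lef1, Apcdd1, Fzd4 and Sox17 in endothelial cells by the number of 5 arterial markers found in a cell (x axis), in each library; bars are 95% Poisson intervals, which cover counting error only, and the point at 5 markers labelled WT rests on 14 cells. Apcdd1 went from 268 and 317 CPM at 0 markers to 29.2 and 51.0 CPM at 5, while Sox17 stood at 294 and 230 CPM at 0 markers, 472 and 389 CPM at 3, and 356 and 436 CPM at 5.

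The share of cells with a UMI was taken for the 4 called genes at a fixed depth of 3000 UMIs, with intervals that treat the cells of 1 pooled library as independent. A UMI of Lef1 was found in 66.7% of arterial cells labelled WT (exact binomial interval 53.3 to 78.3) and 74.8% labelled KIKO (66.0 to 82.3), against 87.4% (80.8 to 92.4) and 90.4% (85.7 to 93.9) of venous cells. A UMI of Apcdd1 was found in 16.7% (8.29 to 28.5) and 20.2% (13.4 to 28.5) of arterial cells, against 50.3% (41.9 to 58.8) and 54.1% (47.3 to 60.9) of venous cells. For Sox17 the shares were 70.0% (56.8 to 81.2) and 69.7% (60.7 to 77.8) of arterial cells, against 53.8% (45.3 to 62.2) and 44.0% (37.3 to 50.9) of venous cells. For Fzd4 the shares were 26.7% (16.1 to 39.7) and 32.8% (24.4 to 42.0) of arterial cells, against 45.5% (37.1 to 54.0) and 42.7% (36.0 to 49.5) of venous cells, and these intervals overlapped in both libraries, as did those of Sox17 labelled WT. Without thinning, Lef1 was found in 93.5% and 95.2% of arterial and 99.3% and 99.5% of venous cells, at median depths of 12264 and 11678.5, and of 10570 and 10828 UMIs. Microglia or macrophages, which should lack these genes, were taken as the background, and whether their UMIs came from free RNA was not tested. At 3000 UMIs Lef1 was found in 0 of 48 of these cells labelled WT, an upper limit of 6.25% for 3 cells, and in 2.86% of 105 labelled KIKO. The background was 2.08% and 1.90% for Sox17, and 0 cells and 0.952% for Apcdd1. These groups had median depths of 5671 and 7465 UMIs.

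Markers of other vessel cells differed between the zones too. The 4 pericyte markers summed to 128 and 166 CPM in arterial cells labelled WT and KIKO, against 53.7 and 70.5 CPM in venous cells. The 4 smooth muscle markers Acta2, Myh11, Tagln and Cnn1, of which 3 were detected, summed to 581 and 143 CPM in arterial cells, against 18.1 and 19.8 CPM in venous cells. The endothelial markers summed to 9587 and 11738 CPM in arterial and 10441 and 10841 CPM in venous cells, so their order differed between the libraries. The zone differences of Lef1 (0.77) and Apcdd1 (2.01) were as large with endothelial cells that had a pericyte marker left out, while that of Reck moved from -0.30 to -0.70. Over 10 alternatives, this one among them, Fzd4 ran from 0.53 to 0.997 and Sox17 from -0.73 to -0.39. The part of pericyte RNA was not tested. The part of smooth muscle RNA was not tested.

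Pericytes wrap the same capillaries, and the second comparison asked which of the 10 genes mark the endothelial side of that pairing. The endothelial level, taken as the mean of the 3 zones, was higher than in pericytes for 7 genes, against 20% of all genes, and lower for 0, against 21.3%, where DESeq2 and an unadjusted p under 0.05 also gave 0. The called genes were Sox17 (log2 1.33, SE 0.12), Lef1 (1.27, SE 0.11), Fzd4 (1.03, SE 0.11), Reck (0.93, SE 0.13), Tcf7 (0.86, SE 0.15), Ctnnb1 (0.82, SE 0.10) and Adgra2 (0.37, SE 0.11, adjusted p = 0.014 by edgeR and 0.15 by DESeq2). Apcdd1 (0.26, SE 0.11, adjusted p = 0.068), Tspan12 (0.24, SE 0.13, adjusted p = 0.17) and Axin2 (0.18, SE 0.13, adjusted p = 0.27) were not called by edgeR. The median over the 10 genes was 0.84, beside -0.01 over all genes tested.

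Except for Tspan12, the differences were larger without the mixed barcodes. This choice sets the 2 sides apart by their own markers, which can itself widen the differences of genes that go with those markers. Its part was not tested. With pericytes of fewer than 2 endothelial markers and endothelial cells with no pericyte marker, 8 genes were higher in endothelial cells, against 27.8% of the 9945 genes tested, and 0 were lower, against 24.8%. Beside Sox17, the log2 difference was 4.40 (SE 0.17) for Lef1, 3.64 (SE 0.25) for Fzd4, 2.58 (SE 0.39) for Tcf7, 2.23 (SE 0.15) for Ctnnb1 and 2.21 (SE 0.25) for Reck. Apcdd1 (0.67, SE 0.16, adjusted p = 0.0012 by edgeR) and Adgra2 (0.49, SE 0.18, adjusted p = 0.021 by edgeR) were called with small differences. Axin2 (0.36, SE 0.21, adjusted p = 0.15 by edgeR) and Tspan12 (0.07, SE 0.22, adjusted p = 0.80 by edgeR) were not.

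The counts behind these values show which genes these pericytes held. Sox17 had 1 UMI in the 60 pericytes labelled WT and 0 in the 118 labelled KIKO, against 329 and 276 CPM in endothelial cells. In the library labelled KIKO its endothelial level was at least 59.5-fold higher, counted against a floor of 3 UMIs per library. Lef1 had 10 and 30 UMIs in these pericytes, which was 4.05% and 5.22% of its endothelial level. Fzd4 had 5 and 9 UMIs, or 8.13% and 8.23%.

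The other pericyte values were higher. Reck stood at 20.2% and 27.5% of its endothelial level, and Ctnnb1, expressed in most cells, at 23.2% and 22.4%. Tcf7 stood at 39.2% and 6.27%, from 8 and 3 UMIs, so the libraries differed there on few counts. Apcdd1 stood at 63.3% and 44.5%, from 42 and 72 UMIs, and the other 3 genes were nearest to their endothelial levels. Axin2 was at 101% and 79.1%, Adgra2 at 100.1% and 74.2%, and Tspan12 at 124% and 93.1% of the endothelial level. In microglia or macrophages the same 3 genes had 0, 0 and 1 UMI in the library labelled WT and 1, 0 and 1 UMI in the library labelled KIKO, and Apcdd1 had 0 and 4.

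**Figure D3:**
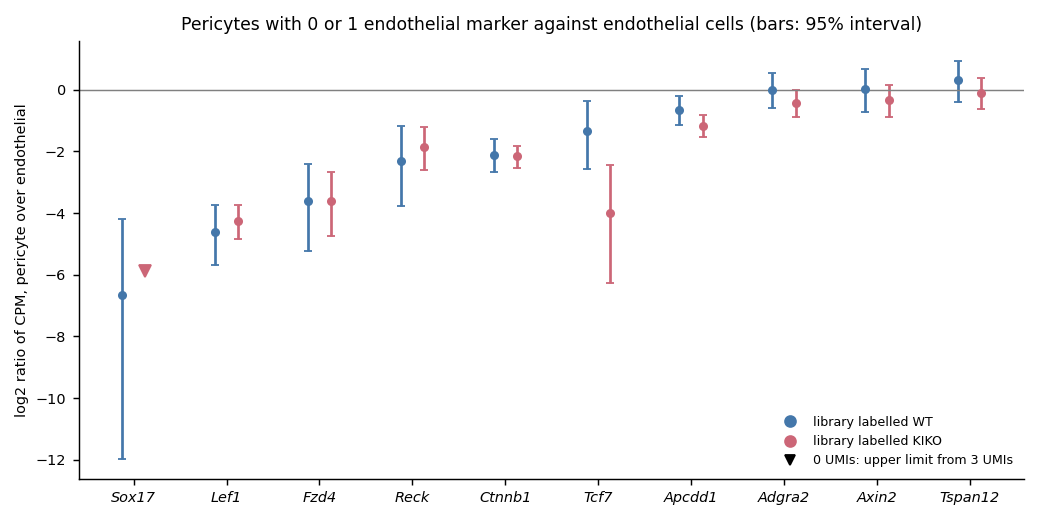
Log2 ratio of CPM (y axis) between pericytes with 0 or 1 endothelial marker and all endothelial cells of the same library, for the 10 genes (x axis), with exact 95% intervals that cover counting error only; the triangle is the upper limit that 3 UMIs give where 0 were found. Sox17, Lef1 and Fzd4 lay between 0.984% and 8.23% of the endothelial level where a UMI was found, Tcf7 lay at 39.2% labelled WT and 6.27% labelled KIKO, and the intervals of Axin2 and Tspan12 reached 0 in both libraries.

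The levels by cell group set the endothelial values beside those of cells that do not line vessels. Fibroblasts (31 and 24 cells) had 87.3 and 74.7 CPM of Adgra2, and 54.5 and 74.7 CPM of Reck, where 1 cell held 8 of the 15 Reck UMIs labelled WT and 9 of the 15 labelled KIKO. The same cells had 4 and 0 UMIs of Lef1 and 0 of Sox17. Microglia or macrophages had 0 and 12 UMIs of Lef1, with 5 of the 12 in 1 cell. Ctnnb1 was found in every group, at 75.3 and 69.6 CPM in microglia or macrophages and 56.1 and 61.5 CPM in T cells.

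**Figure D4:**
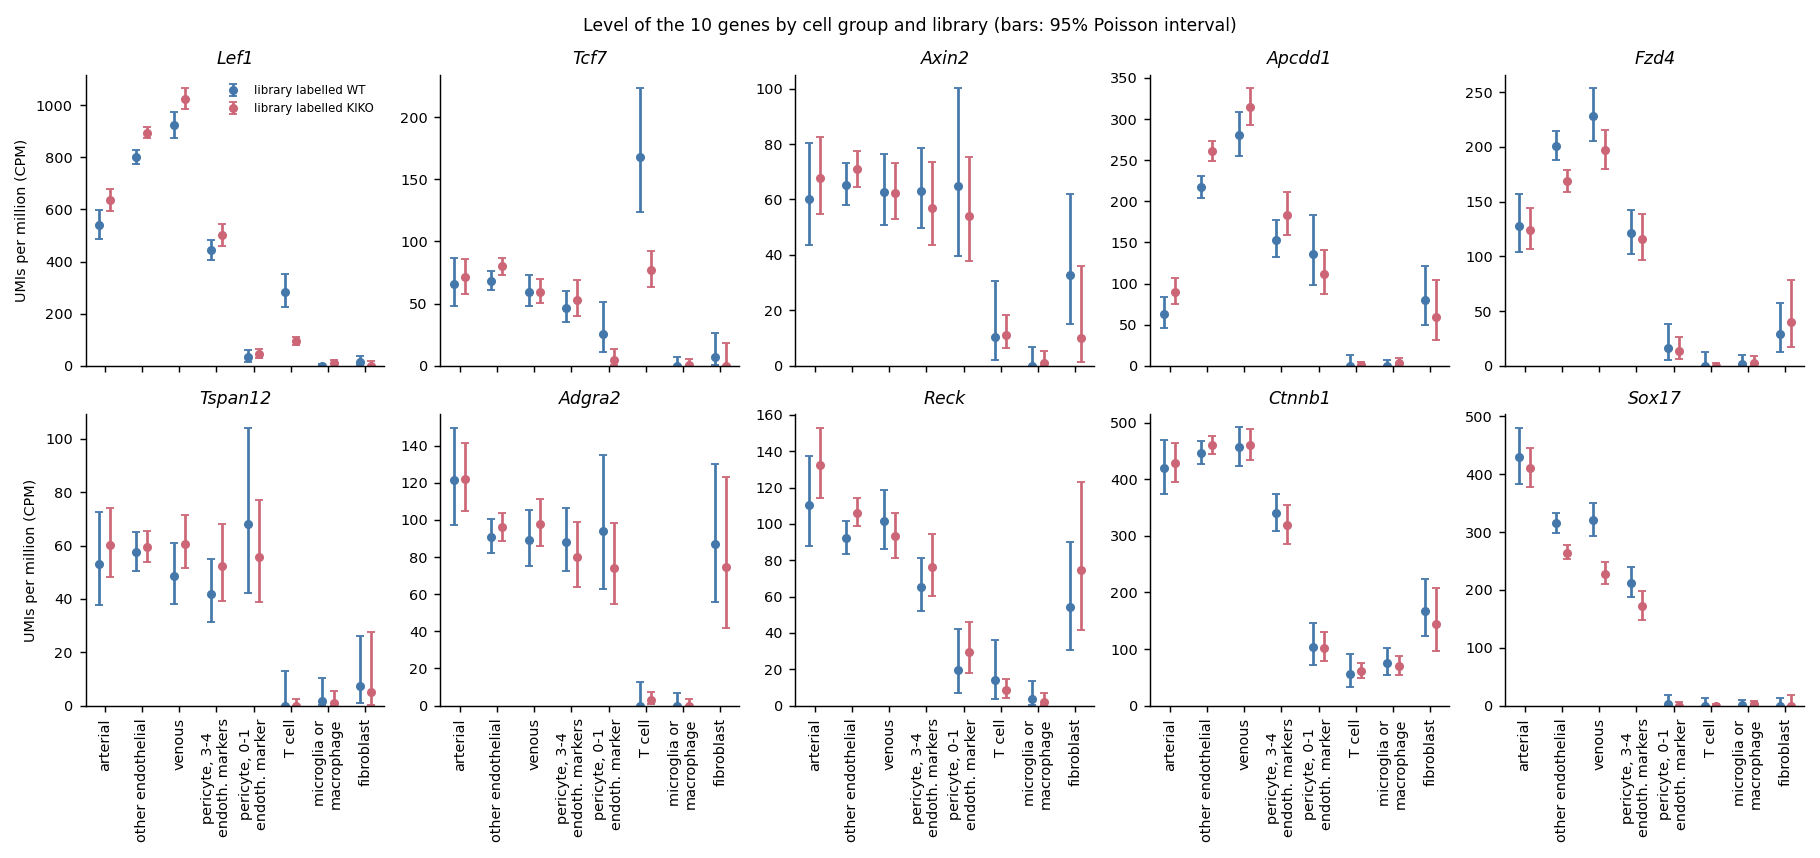
CPM (y axis, from 0, with a scale of its own for each gene) of the 10 genes in 8 cell groups (x axis) of the 2 libraries; bars are exact 95% Poisson intervals, which cover counting error only. In pericytes with 0 or 1 endothelial marker Lef1 stood at 32.4 and 46.4 CPM, against 800 and 889 CPM in all endothelial cells, Axin2, Tspan12 and Adgra2 stood at 54.1 to 94.0 CPM, and Tcf7 was highest in T cells of the library labelled WT (168 CPM).

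The genes whose levels followed Lef1 most closely were Hip1 (Pearson r = 0.995), Maoa (0.995), Ldlrad3 (0.995), Dab2ip (0.994) and Epha4 (0.993), over 12 sums of 6 cell groups in 2 libraries and among 13674 genes, with log2(CPM + 1). Of the other 9 genes, Tcf7 ranked 39 (r = 0.980), Apcdd1 67 (0.974) and Axin2 79 (0.972). Reck was the lowest, at rank 776 (r = 0.904). The groups used were those with at least 50 cells in each library. They were arterial, venous and other endothelial cells, pericytes, microglia or macrophages, and cells of no named group. T cells, too few in the library labelled WT, were left out although they held Lef1 UMIs. The 12 sums share libraries, depth and cell groups, so these are descriptions.

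The comparison the study was built for is that of the genotypes. Since each holds 1 library, the values are ratios of CPM labelled KIKO over CPM labelled WT with exact 95% limits for 2 Poisson counts, which cover counting error only and not differences between mice or preparations. Over all endothelial cells Lef1, Apcdd1 and Reck were higher and Fzd4 and Sox17 lower beyond counting error in the library labelled KIKO, and 0 of the 10 genes passed 1.5-fold. Of all genes with at least 30 UMIs, 13.6% were higher, 8.78% were lower and 4.6% passed 1.5-fold. The median log2 ratio was 0.11 over the 10 genes and 0.04 over all genes.

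Fzd4 was at 199 CPM in endothelial cells labelled WT and 169 CPM in those labelled KIKO, a log2 ratio of -0.24 (-0.34 to -0.13). By zone the ratio was -0.04 (-0.41 to 0.33) in arterial, -0.21 (-0.41 to -0.01) in venous and -0.25 (-0.38 to -0.13) in other endothelial cells. Its partner Tspan12 was at 55.0 and 59.8 CPM, a ratio of 0.12 (-0.06 to 0.31). Reck was at 96.4 and 107 CPM (0.15, 0.01 to 0.29), and Adgra2 at 93.9 and 100.05 CPM (0.09, -0.05 to 0.24). The receptor genes of one pathway thus had ratios of both signs. Ctnnb1 differed least, at 446 and 456 CPM (0.03, -0.03 to 0.10).

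Lef1 was at 800 CPM in endothelial cells labelled WT and 889 CPM in those labelled KIKO, a log2 ratio of 0.15 (0.10 to 0.20). The ratio was above counting error in arterial (0.24, 0.06 to 0.41), venous (0.15, 0.05 to 0.24) and other endothelial cells (0.16, 0.10 to 0.22). Of all genes, 7.77% were higher in arterial, 8.62% in venous and 11.3% in other endothelial cells by this rule. Past 1.5-fold were 0 of the 10 genes in these zones, against 7.59% of all genes in arterial, 5.51% in venous and 4.63% in other endothelial cells. Tcf7 was at 66.1 and 74.1 CPM (0.16, -0.01 to 0.33), and its interval lay above 0 in other endothelial cells alone (0.22, 0.02 to 0.43).

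Apcdd1 was at 215 and 250.3 CPM in endothelial cells labelled WT and KIKO, a log2 ratio of 0.22 (0.13 to 0.31). It was highest in arterial cells, 0.52 (0.02 to 1.03) on 46 and 130 UMIs, then 0.27 (0.15 to 0.38) in other and 0.16 (-0.01 to 0.34) in venous cells. Axin2, the other inhibitor, was at 64.2 and 68.5 CPM (0.09, -0.08 to 0.27).

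Sox17 was at 329 and 276 CPM in endothelial cells labelled WT and KIKO, a log2 ratio of -0.25 (-0.33 to -0.17). The ratio was -0.06 (-0.26 to 0.14) in arterial, -0.25 (-0.36 to -0.15) in other and -0.49 (-0.67 to -0.31) in venous cells. Of all genes, 5.51% had a lower ratio than Sox17 in venous cells. By this rule 6.21% of all genes were lower in venous, 8.49% in other endothelial and 6.75% in arterial cells. The difference between the zones was not tested, since each ratio rests on 1 library per genotype.

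The limit of 20000 UMIs per barcode decided several of these values. Without it 9 of the 10 genes were higher and 0 lower over all endothelial cells, and in venous cells 10 were higher and 4 passed 1.5-fold. The share of all genes was not counted without the limit, so whether these counts are particular to the 10 genes was not tested. The venous ratio then became 0.19 for Fzd4 and 0.34 for Sox17, and that of Sox17 over all endothelial cells became 0.17. In the library labelled WT, 101 of 246 venous barcodes then lay over the limit and held 76.3% of the UMIs of the group, and 26 of the 101 had 3 or more choroid plexus markers. In the library labelled KIKO, 63 of 283 venous barcodes lay over it, 3 of them with such markers.

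**Figure D5:**
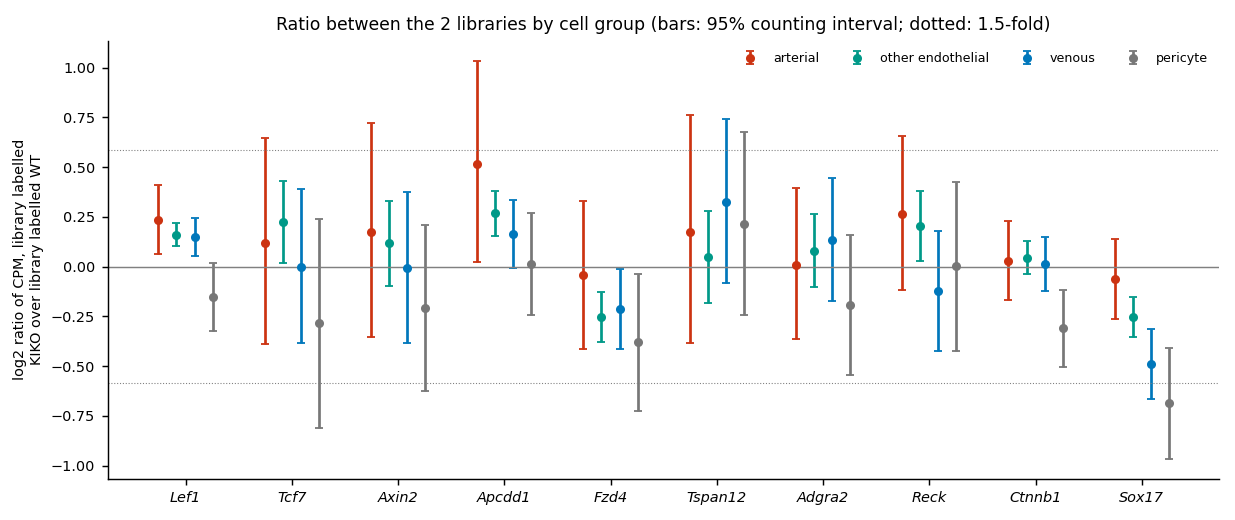
Log2 ratio of CPM (y axis), library labelled KIKO over library labelled WT, for the 10 genes (x axis) in arterial, other endothelial and venous cells and pericytes; bars are exact 95% intervals that cover counting error only, and dotted lines mark 1.5-fold. Lef1 lay above 0 in the 3 endothelial groups, Sox17 lay at -0.06, -0.25 and -0.49 in arterial, other and venous cells, and 1 point, Sox17 in pericytes (-0.69), passed 1.5-fold.

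In pericytes, Sox17 (167 and 104 CPM, log2 ratio -0.69, -0.97 to -0.41), Fzd4 (98.7 and 75.9 CPM, -0.38, -0.72 to -0.04) and Ctnnb1 (292 and 236 CPM, -0.31, -0.51 to -0.12) were lower in the library labelled KIKO, and 0 of the 10 were higher. Of all genes 10.8% were lower and 13.1% were higher, and 11.1% passed 1.5-fold, as Sox17 did. The endothelial markers in this group moved with these values, at 5552 CPM labelled WT and 4256 CPM labelled KIKO. Among pericytes with fewer than 2 endothelial markers, 0 of the 3 genes were lower beyond counting error, with ratios of -0.22 (-1.95 to 1.71) for Fzd4 and -0.02 (-0.65 to 0.63) for Ctnnb1, and with 1 and 0 UMIs of Sox17. Tcf7 was lower among them, on 8 and 3 UMIs (-2.48, -5.03 to -0.42), fewer than the 30 UMIs asked of a gene elsewhere. Among pericytes with 3 or more endothelial markers, Sox17 was at 212 and 172 CPM (-0.30, -0.59 to -0.03). In that subset Fzd4 (-0.06, -0.42 to 0.29) and Ctnnb1 (-0.09, -0.31 to 0.12) lay within counting error. Lef1 was higher there, at 443 and 501 CPM (0.18, 0.004 to 0.35).

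The rest of the pathway was read from a list of 103 genes. The ligands known to act on brain endothelium were near 0 in the vessel cells: all endothelial cells held 1 UMI of Wnt7a in each library and 0 of Wnt7b and Ndp, where 3 UMIs would be 0.446 and 0.279 CPM. Astrocytes (23 and 20 cells) held 3 and 1 UMIs of Wnt7b and 1 and 2 of Ndp, the norrin gene, and 0 of Wnt7a. The co-receptor Lrp5 was at 65.9 and 65.2 CPM in endothelial cells and Lrp6 at 96.8 and 103 CPM, and neither passed the test between venous and arterial cells (adjusted p by edgeR 0.74 and 0.67).

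Of these 103 genes, 61 could be tested between zones, 12 were higher in venous and 6 higher in arterial cells by edgeR, against 6.53% and 8.12% of all genes, and the largest adjusted p among those named was 0.044, for Ror1. The inhibitors Nkd1, Nkd2 and Znrf3, which are known to restrain Wnt signalling at the receptor or Dishevelled, were higher in venous cells. Nkd1 stood at 87.3 and 93.2 CPM in arterial and 183 and 211 CPM in venous cells labelled WT and KIKO, a log2 fold change of 1.18 (SE 0.15). Nkd2 was at 6.82 and 4.14 CPM in arterial and 22.6 and 11.7 CPM in venous cells (1.67, SE 0.47), and Znrf3 at 47.7 and 77.3 against 69.9 and 120.3 CPM (0.63, SE 0.18). Dkk2, a secreted inhibitor, was lower in venous cells, on 1 and 22 UMIs in arterial and 0 and 1 UMIs in venous cells.

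The ligands split by zone. Wnt5a stood at 13.6 and 8.98 CPM in arterial and 84.8 and 79.8 CPM in venous cells labelled WT and KIKO, a log2 fold change of 3.02 (SE 0.30). Wnt5b had 21 and 52 UMIs in arterial cells, 23 of the 52 in 1 cell, and 0 and 8 UMIs in venous cells. Of the receptors, Fzd3 was lower in venous cells, at 12.3 and 10.9 CPM against 25.9 and 38.0 CPM in arterial cells (-1.48, SE 0.28), as was Ror1 on 1 and 3 against 5 and 7 UMIs. Ror1 stood at 223 and 320 CPM in pericytes, whose markers were higher in arterial than in venous cells. The part of pericyte RNA in the Ror1 difference was not tested. Bcl9l, a β-catenin co-activator, was lower as well, at 14.9 and 23.5 against 50.5 and 42.8 CPM (-1.15, SE 0.25).

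Of 18 barrier genes tested, 8 were higher in venous cells and 1 lower, against 6.53% and 8.12% of all genes. Tfrc, the transferrin receptor, stood at 39.5 and 90.4 CPM in arterial and 270.5 and 365 CPM in venous cells labelled WT and KIKO (log2 2.25, SE 0.21). Slc16a1, a monocarboxylate transporter, was at 61.4 and 49.0 against 177 and 193 CPM (1.84, SE 0.17), and Slc7a5, a large neutral amino acid transporter, at 213 and 282 against 703 and 653 CPM (1.48, SE 0.14). Sox18, of the same SOX group as Sox17, was lower in venous cells, at 126 and 111 against 315 and 225 CPM (-1.12, SE 0.14). Sox17 and Sox18 thus had the same direction between zones.

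Between the libraries, 62 of the 103 genes had enough UMIs in endothelial cells, and 23 were higher, 7 lower and 6 past 1.5-fold in the library labelled KIKO, against 13.6%, 8.78% and 4.6% of all genes. In arterial cells Tfrc was higher (39.5 and 90.4 CPM, log2 ratio 1.19, 0.60 to 1.83), as were Mfsd2a, a lipid transporter of the barrier (124 and 206 CPM, 0.73, 0.39 to 1.08), Tnfrsf19 (64.1 and 105 CPM, 0.71, 0.23 to 1.22) and Slco1c1, a thyroid hormone transporter (1069 and 1604 CPM, 0.59, 0.47 to 0.70). Znrf3 was higher in arterial (0.70, 0.14 to 1.29) and in venous cells (0.78, 0.46 to 1.12). Plvap, a gene of leaky fenestrated vessels, had 1 UMI in endothelial cells labelled WT and 48 in those labelled KIKO, but 44 of the 48 came from 1 cell. In venous cells Notum (33.0 and 49.8 CPM, 0.59, 0.11 to 1.09) and Btrc (0.60, 0.09 to 1.14) were higher, and Nkd2 (-0.95, -1.71 to -0.20) and Axin1 (-0.62, -1.20 to -0.04) lower. In other endothelial cells Wnt5a (8.76 and 14.5 CPM, 0.73, 0.18 to 1.30), Dvl2 (11 and 35 UMIs) and Ror1 (6 and 30 UMIs, 17 of the 30 in 1 cell) were higher, and over all endothelial cells Wnt11 (20 and 13 UMIs) was lower.

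In pericytes, 10 of 18 barrier genes were lower and 0 higher in the library labelled KIKO, against 10.8% and 13.1% of all genes. Slc2a1, the glucose transporter of the barrier, was at 1700 and 1004 CPM (log2 ratio -0.76, -0.85 to -0.67), and Sox7 at 84.1 and 39.9 CPM (-1.08, -1.51 to -0.65). Sox18 was at 122 and 73.6 CPM (-0.73, -1.06 to -0.40). Of the inhibitors Notum was lower (-0.98, -1.79 to -0.21), and Tle3, a nuclear co-repressor, was higher (0.90, 0.26 to 1.56). The 10 barrier genes that were lower were all called higher in endothelial cells than in pericytes, as were 16 of all 18 barrier genes tested in that contrast. The share of pericytes with 3 or more endothelial markers was also lower in the library labelled KIKO (59.1% labelled WT and 40.5% labelled KIKO). Its part in these ratios was not tested for the genes of this list.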

How the data were processed

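Cells were profiled in 2 libraries of mouse cerebellum with 10x Genomics 3′ chemistry. The values in the matrices are raw UMI counts (whole numbers) that the authors obtained with Cell Ranger and deposited (7.0.1 per the file headers; the methods of the study name another version) on mm10, with no normalisation. The methods also give other cell numbers before and after filtering than these matrices do. Barcodes with more than 500 genes, 1000 to 20000 UMIs and under 10% mitochondrial UMIs were kept. The study states the same lower limits and mitochondrial limit, joins a limit on genes to that of 20000 UMIs in its definition of outliers, and names no doublet removal. The limit on UMIs was applied alone, and no doublets were removed here. A cell passing both zone gates (10 labelled WT, 12 labelled KIKO) was taken as arterial. Genes were placed with GENCODE vM21, which held 32158 of the identifiers, and of rows with the same symbol that of the higher total was taken.

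The 10 genes and all lists were chosen with earlier results of these data known. UMI counts were summed per library and cell group. Zones were compared with edgeR 4.0.16 (TMM factors, filterByExpr, gate markers left out, library as a term; R 4.3.3) on 8 sums, with the library as the replicate, and DESeq2 1.42.0 as an alternative. Calls are at an adjusted p under 0.05. The block pairs cell groups of the same library, which come from the same pool of mice. Genotypes have 1 library each and no test, and ratios carry exact Poisson intervals (95%, counting error only) and were compared with genes of at least 30 UMIs. For shares of cells, every cell was thinned to 3000 UMIs, at the cost of 2 to 54 cells of an endothelial group labelled WT and 2 to 95 labelled KIKO, with exact binomial intervals. In the trends a gene's level was read by number of markers. The zone test and the interval of a ratio were tested on simulated data, and the shares and trends were not. Beside the 10 genes, the text names pathway genes called between venous and arterial cells (at most 4 per role by size), Wnt7a, Wnt7b, Ndp, Lrp5 and Lrp6, and pathway genes past 1.5-fold between libraries (at most 5 per cell group). Alternatives changed the tool, the filter on low counts, the block, the gates (2 or 4 markers), the depth, the upper limit on UMIs, the mitochondrial limit (5%), the pericyte definition, the scaling and the weight of single cells. One, with no upper limit and without barcodes of 3 choroid plexus markers, was added after seeing the data. The check of the genotype labels by the targeted gene is not reported here.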

Additional observations from a re-analysis of the deposited data

How the results depend on the processing

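Of the recomputed counts of genes called, 146 stayed within 1.5 times and 42 did not. Beside these counts, the share of all genes was recomputed only for endothelial cells against pericytes without mixed vessel cells. For venous against arterial cells the 3 genes called higher became 2 with no upper limit on UMIs, where Lef1 fell to 0.52 (adjusted p = 0.055), and the 1 called lower became 0 without the library block and 2 with 4 markers, without mixed vessel cells or with the added choice. For arterial against other cells, 1 higher became 0 (no block, thinning, no upper limit) or 2 (4 markers, no mixed cells), and 3 lower became 1 (no block, 2 markers, no upper limit). For venous against other cells, 0 and 0 became 2 higher and 1 lower with the added choice. In both contrasts of arterial cells Apcdd1 was called under every alternative that gave a test, and against pericytes it was called under 4. With 1 library left, the venous-over-arterial value was 0.69 to 0.77 for Lef1, 1.81 to 2.16 for Apcdd1, 0.67 to 0.83 for Fzd4, -0.85 to -0.42 for Sox17 and -0.51 to -0.12 for Reck.

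Between genotypes with no upper limit, genes higher became 5 (arterial), 10 (venous), 8 (other), 9 (all endothelial) and 1 (pericytes), lower became 0 (venous, all endothelial) and 1 (other), past 1.5-fold 4 (venous) and 0 (pericytes), and the ratio reversed to 0.19 for Fzd4 (venous) and to 0.34 (venous) and 0.17 (all endothelial) for Sox17. With the added choice, genes higher were 2 (venous) and 5 (all endothelial), lower 1 (arterial) and past 1.5-fold 0 (pericytes). Arterial genes higher became 1 under 5% mitochondrial UMIs or without mixed cells, and past 1.5-fold 1 with 4 markers or without mixed cells. Venous genes higher became 2 with 2 markers, 5%, no mixed cells or no top cell, lower 1 with 4 markers, 5% or no mixed cells, and past 1.5-fold 1 with 4 markers. Pericyte genes lower and past 1.5-fold became 0 without mixed cells. The causes were not tested. No paired analysis was possible between genotypes because each group holds 1 library, and leaving it out gives no value. The smallest zone group was the 62 arterial cells labelled WT, with 733308 UMIs.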

Other observations

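Outside the vessels, Lef1 and Tcf7 were found in T cells, where TCF and LEF factors are known for naive and memory-like states. T cells labelled WT (37 cells) held 81 UMIs of Lef1, 284 CPM (226 to 353), and 48 of Tcf7, 168 CPM (124 to 223). T cells labelled KIKO (166 cells) held 134 UMIs of Lef1, 93.6 CPM (78.5 to 111), and 110 of Tcf7, 76.9 CPM (63.2 to 92.7). A single cell held 16 of the 81 and 33 of the 134 Lef1 UMIs. The log2 ratio, KIKO over WT, was -1.60 (-2.01 to -1.18) for Lef1 and -1.13 (-1.63 to -0.61) for Tcf7, while the endothelial ratios were 0.15 and 0.16. Sox17, Fzd4 and Tspan12 had 0 UMIs in T cells of both libraries, and Apcdd1 had 0 and 2. The group labelled WT is under 50 cells, and the difference between the cell types was not tested. The intervals cover counting error only. The share of all genes was not counted in T cells, so how common ratios of this size are there was not tested.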
